A study of Mus musculus with 18 samples.

Results

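The IL-24 family examined here comprised 7 of the 52636 genes counted in the mouse keratinocyte series, taken by gene symbol: the ligand genes Il24, Il19 and Il20 and the receptor chain genes Il20ra, Il20rb, Il22ra1 and Il10rb. The family was chosen by the count of Il24 in control mice, which had been seen to rise strongly from skin to tumors, so the comparisons of control tumors with control skin are given below as a description, and no test of them is read. IL-19, IL-20 and IL-24 are cytokines of the IL-20 subfamily, which epithelial and immune cells release and to which keratinocytes respond. All 3 ligands bind the receptor built from the chains IL-20RA and IL-20RB, whereas IL-20 and IL-24 also bind IL-22RA1 paired with IL-20RB. IL-10RB joins IL-22RA1 to form the receptor of the related cytokine IL-22, and it also serves the IL-10 and interferon lambda receptors. The chains signal through JAK kinases and STAT3, and in skin the subfamily is known for its part in psoriasis and wound repair.

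Keratinocyte RNA came from Zfp36 ΔK14 mice and from Zfp36 fl/fl controls, each as mock skin, treated skin and tumors, with 3 libraries in each of the 6 groups. Both genotypes carry loxP-flanked Zfp36 alleles, and in ΔK14 mice Cre under the keratin 14 promoter deletes the gene in basal epidermal cells and their descendants. Zfp36 encodes tristetraprolin (TTP), a protein that binds AU-rich elements in mRNA 3′ untranslated regions and promotes decay of the message. Adult mice received the mutagen DMBA and then repeated applications of the tumor promoter TPA, both on the back skin. Treated skin lay next to papillomas, and mock animals received neither agent. According to the study's methods the cells were sorted as EpCAM+ and CD45-, CD140a- and CD31-, although the labels name whole skin as the source. The labels do not tie libraries to animals, so p-values measure the spread between libraries, which may in part be technical. In mock ΔK14 skin the replicate 3 column held the same counts as replicate 2 in all 52636 genes. The pair was counted once, which left 17 libraries and n = 2 in that group.

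Library totals ranged from 2808550 to 9617980 counts. Levels are given as CPM, the counts divided by library size after scaling by the trimmed mean of M values, so that 3 counts corresponded to 0.289 to 1.503 CPM. Zfp36 itself checked the labels: it ranged from 151.5 to 712.7 CPM in the 9 fl/fl libraries and from 10.05 to 38.4 CPM in the 8 ΔK14 libraries. The keratinocyte genes Krt5, Krt14 and Epcam were present in every library. Genes of other cells were present too. Summed over 6 fibroblast genes, the level was 375 to 1671 CPM in skin libraries and 30.3 to 385 CPM in tumors. Over 5 melanocyte genes the sum was 41.0 to 364 CPM in skin and 8.82 to 38.2 CPM in tumors. The part of such cells in the member values was not tested. Replicate 1 of mock skin stood apart in both genotypes, with Krt71, a keratin of the hair follicle inner root sheath, at 572 and 469 CPM against at most 1.44 CPM in the other mock libraries. In these replicates Krt14 was at 602 and 669 CPM, against 4215 to 4961 CPM in the other mock libraries. Their Krt5 was at 1485 and 1454 CPM, against 5981 to 7448 CPM.

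Tristetraprolin acts through AU-rich elements, and the ligand messages held a short motif of that kind. The heptamer TATTTAT was counted in the direction of transcription in 1 3′ untranslated region for each gene, the longest in the annotation (GRCm38, GENCODE M21). It was present in 27.6% of 20939 genes. Il24 held 2 copies in 381 bases, Il19 held 1 in 492 bases and Il20 held 4 in 430 bases, partly within overlapping windows, whereas none of the 4 receptor chain genes held a copy. Median length over all genes was 961 bases. The contrast depended on the motif: no member held the longer TTATTTATT. The shorter ATTTA had 4 copies in Il24, 1 in Il19 and 5 in Il20, but also 4 in Il10rb and 1 in Il20ra. The windows of 29 bases below show both heptamers of Il24, that of Il19 and the first and last of Il20. They are printed as DNA in the direction of transcription, with the heptamer in capitals. All lie on the minus strand.
Il24, chr1:130882232-130882260: gtagatttgcaTATTTATtacagccctat
Il24, chr1:130882185-130882213: cctggaaaccgTATTTATttgtgagacca
Il19, chr1:130932819-130932847: ggctgctgtggTATTTATagcaatatgtg
Il20, chr1:130907111-130907139: aatgctatctaTATTTATtcattgatatg
Il20, chr1:130907030-130907058: ttagaagattaTATTTATaacctgtcaag

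Promoters are shown for the members whose window held a motif of factors downstream of TPA or of these receptors. The motifs, TGANTCA for the AP-1 factors that TPA activates and TTCNNNGAA for STAT factors, read the same on both strands and were searched in the 250 bases before each RefSeq gene start (GRCm38.p6). TGANTCA was found in 6.75% and TTCNNNGAA in 7.02% of 32851 such windows. Il20ra and Il22ra1 each held 1 TGANTCA, at -164 and -222 from the gene start, and Il19 held 1 TTCNNNGAA at -225. The windows of Il20 and Il20rb held neither motif. A match is a description of the letters only. Motifs are in capitals.
Il19, chr1:130940116-130940365, minus strand: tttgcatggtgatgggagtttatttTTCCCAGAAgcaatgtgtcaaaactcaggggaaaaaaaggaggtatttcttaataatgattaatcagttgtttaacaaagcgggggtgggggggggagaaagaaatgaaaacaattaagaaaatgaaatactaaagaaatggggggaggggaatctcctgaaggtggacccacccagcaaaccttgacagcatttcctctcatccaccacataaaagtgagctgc
Il20ra, chr10:19712337-19712586, plus strand: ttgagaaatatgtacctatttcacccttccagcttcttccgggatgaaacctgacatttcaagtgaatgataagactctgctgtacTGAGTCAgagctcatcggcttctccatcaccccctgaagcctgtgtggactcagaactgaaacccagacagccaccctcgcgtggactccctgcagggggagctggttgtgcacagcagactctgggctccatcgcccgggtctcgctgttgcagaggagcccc
Il22ra1, chr4:135727909-135728158, plus strand: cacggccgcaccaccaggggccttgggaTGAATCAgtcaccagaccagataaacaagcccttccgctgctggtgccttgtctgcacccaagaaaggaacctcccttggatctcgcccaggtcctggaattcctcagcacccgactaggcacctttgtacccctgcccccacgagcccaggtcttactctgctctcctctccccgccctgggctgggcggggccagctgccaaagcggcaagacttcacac

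Il24 was close to absent from the skin libraries of either genotype and was between 90.6 and 700.5 CPM in tumors. Its level was 0, 0.587 and 0.0964 CPM in mock fl/fl skin, and 0 and 0.359 CPM in mock ΔK14 skin. Treated fl/fl skin held 0.649, 0.437 and 0.260 CPM and treated ΔK14 skin 0.536, 0.780 and 1.85 CPM, the latter being the highest of all 11 skin libraries. In tumors it stood at 111, 154 and 112 CPM in fl/fl mice. ΔK14 tumors held 90.6, 512 and 700.5 CPM. No skin library came near any tumor library, and the ΔK14 tumors were spread far more widely than the fl/fl tumors, with replicate 1 below all 3 fl/fl values. Summed over libraries, Il24 had 4 counts in mock fl/fl skin, 1 in mock ΔK14, 10 in treated fl/fl and 20 in treated ΔK14, against 1576 in fl/fl and 6926 in ΔK14 tumors.

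Il19 followed the same order at a lower level. It was at most 0.196 CPM in mock fl/fl skin, absent from both mock ΔK14 libraries, at 0.325, 0 and 0 CPM in treated fl/fl skin and at 0.179, 0.650 and 1.18 CPM in treated ΔK14 skin. Tumors of fl/fl mice held 33.6, 40.8 and 8.49 CPM, and ΔK14 tumors 38.4, 135 and 173 CPM. Replicate 1 was again the lowest ΔK14 tumor, and for Il19 it fell within the range of the fl/fl tumors.

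Il20, the remaining ligand gene, behaved differently. Skin libraries held at most 0.674 CPM, and the fl/fl tumors 0, 6.24 and 2.61 CPM. In ΔK14 tumors it stood at 0, 0.362 and 0 CPM, a sum of 2 counts against 49 in fl/fl tumors. Il20 did not pass the low-count filter in any comparison of 2 groups, so no test was made there. Per kilobase of annotated exon, the mean level in ΔK14 tumors was 313 ± 225 CPM for Il24, 101 ± 60.5 for Il19 and 0.102 ± 0.176 for Il20 (SD, n = 3). In fl/fl tumors the corresponding levels were 90.6 ± 17.8, 24.0 ± 14.7 and 2.49 ± 2.64 (SD, n = 3). Il24 was thus the most abundant ligand message per length in tumors of both genotypes.

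**Figure D1:**
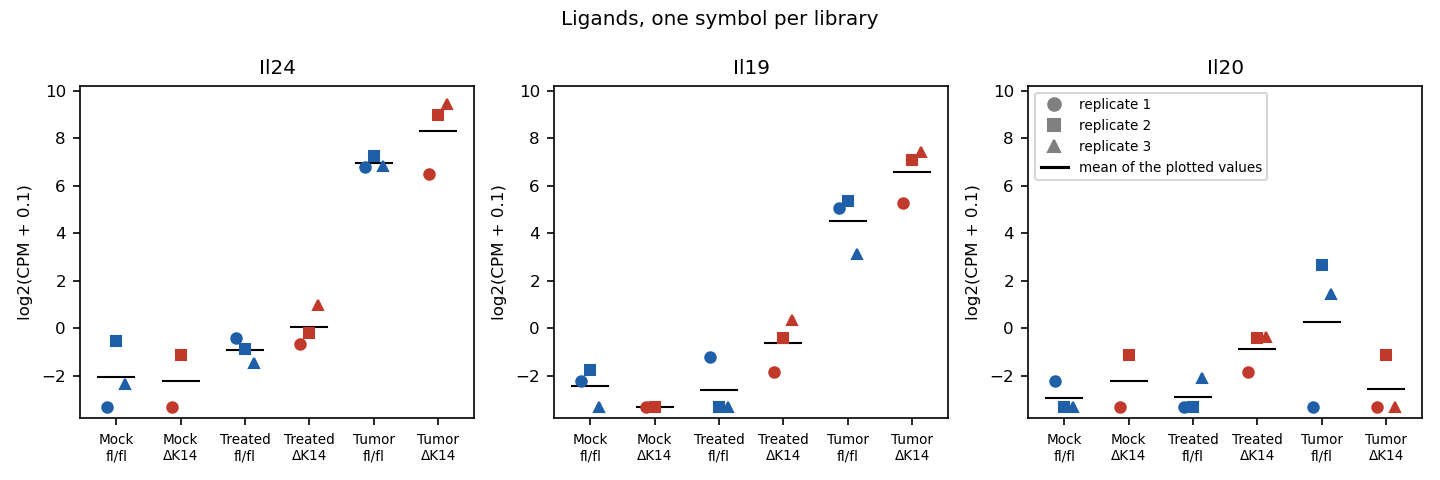
Level of Il24, Il19 and Il20 in each of 17 libraries, as log2(CPM + 0.1) on the vertical axis, by group on the horizontal axis; symbol shape gives the replicate, blue is fl/fl, red is ΔK14 and the black line is the mean of the plotted values. All 6 tumor libraries lie above all 11 skin libraries for Il24 and Il19, whereas Il20 is seen above 1 CPM in 2 fl/fl tumors only.

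In ΔK14 mice, whose libraries the choice by control tumors did not use, although their results were known when the family was chosen, both abundant ligand genes rose from treated skin to tumors. Il24 was 8.56 ± 0.88 higher on the log2 scale (SE, adjusted p = 0.000450, edgeR quasi-likelihood F test with Benjamini-Hochberg adjustment over 15289 genes). Il19 was 7.26 ± 0.71 higher (adjusted p = 0.000386). Both genes passed the low-count filter here only through the tumor libraries, with 20 and 13 summed counts in treated skin. Their p-values are therefore given as a description. Both calls recurred in each of 13 alternative fits, which share these libraries, and are likewise a description. Log2 changes there lay between 8.07 and 9.18 for Il24 and between 6.89 and 7.84 for Il19. On summed counts the ratios were 436 (95% exact interval 282 to 714) for Il24 and 177 (103 to 333) for Il19, where the intervals cover counting error only. A call required an adjusted p under 0.05 and a change above 2-fold. In this comparison 10.5% of all genes tested were called higher and 15.5% lower, against 2 higher and 0 lower of the 5 members tested. In bulk RNA of this kind, more or fewer cells of a type and more or less message per cell cannot be told apart.

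The other members tested between ΔK14 tumors and treated ΔK14 skin did not pass. Il20rb, the chain shared by both IL-24 receptors, held 7.87, 31.4 and 63.2 CPM in treated skin against 26.3, 14.3 and 10.8 CPM in tumors. Its difference was -1.08 ± 0.63 (adjusted p = 0.208). Il22ra1 held 4.65, 9.35 and 12.1 CPM against 6.25, 3.62 and 2.84 CPM, a difference of -1.14 ± 0.44 (adjusted p = 0.0712). Il10rb was at 7.33, 8.96 and 8.43 CPM against 8.48, 16.5 and 20.9 CPM, with a difference of 0.78 ± 0.33 (adjusted p = 0.0901). The groups overlapped for each of these chains. Il20ra had too few counts for the test: it was at 0.536, 5.85 and 9.27 CPM in treated skin and at 0.893, 1.45 and 0.948 CPM in tumors. The count depended on single libraries and on the filter. Without replicate 1 of treated ΔK14 skin, 5 members and 4121 of 16034 genes were called, with Il20ra at -2.82, Il20rb at -1.53 and Il22ra1 at -1.43 lower. Without replicate 1 of ΔK14 tumors 4 members and 4027 of 16678 genes were called, Il22ra1 at -1.50 and Il10rb at 1.10 joining the ligands, and with no filter on low counts 5 members and 5509 of 33822 genes.

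Against mock ΔK14 skin, Il24 and Il19 also rose and Il20ra fell. Il24 passed with an adjusted p of 0.0107 and Il19 with 0.0122 (edgeR, 15027 genes). Both again entered the test only through the tumor libraries. With 1 count in mock skin the ratio of summed Il24 counts was 2942 (95% exact interval 528 to 116236), and Il19, at 0 counts in mock skin, was at least 259-fold higher when set against 3 counts over that group. Il20ra, the chain particular to the receptor that also takes IL-19, was at 3.78 and 50.6 CPM in mock skin and at most 1.45 CPM in the 3 tumors. Its log2 change was -4.66 ± 1.01 (adjusted p = 0.0314). Il20ra, with 17 summed counts in tumors, passed the low-count filter only through the mock libraries, so its p-value is given as a description. Il20rb at -2.41 ± 0.75 (adjusted p = 0.0736), Il22ra1 at -0.85 ± 0.46 (adjusted p = 0.238) and Il10rb at 1.06 ± 0.45 (adjusted p = 0.1502) did not pass. Of 6 members tested 2 were called higher and 1 lower, beside 7.05% and 7.22% of all genes. Without replicate 2 of ΔK14 tumors no member was called (0 of 6), and the adjusted p-values of Il24, Il19 and Il20ra became 0.0618, 0.0646 and 0.114. The mock group had 2 libraries. Without replicate 1, the one that stood apart, 4 members and 4573 of 16269 genes were called, Il20ra at -5.52 (adjusted p = 4.69e-05) and Il20rb at -3.17 (adjusted p = 0.000799) among them, with the lone mock library assumed to vary like the tumors. Without replicate 2 instead, 2 members and 3585 of 16304 genes were called, with Il20ra at -1.76 ± 0.66 (adjusted p = 0.0840) and Il20rb at -0.43 ± 0.48 (adjusted p = 0.540). The call of Il20ra was also lost without any 1 of the 3 tumors. Over 13 alternatives the adjusted p of Il20ra ranged up to 0.117 and that of Il20rb up to 0.540.

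**Figure D2:**
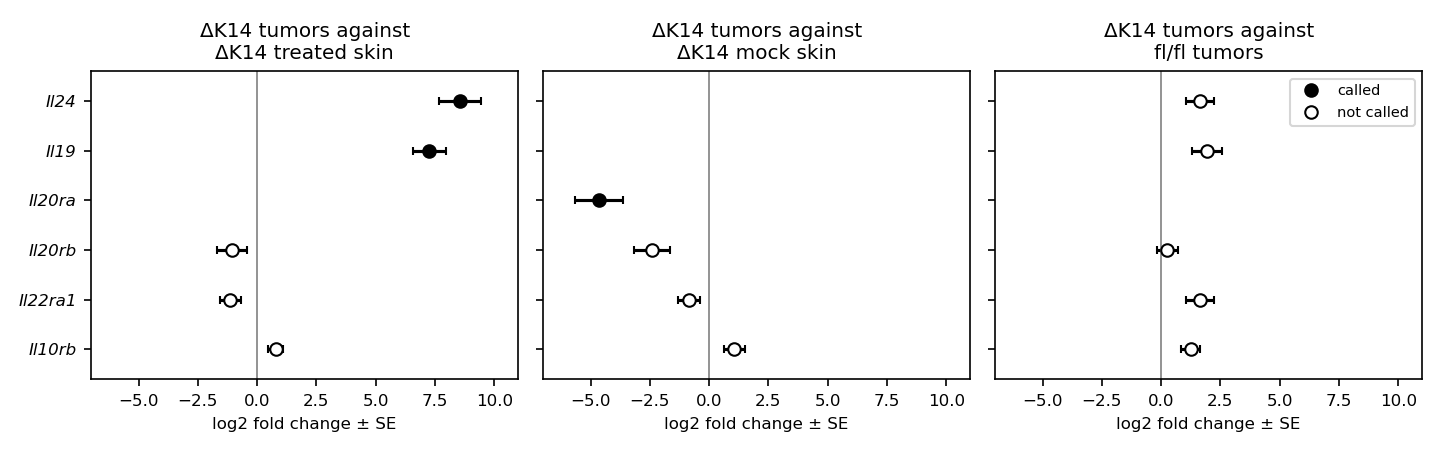
Log2 fold change with its standard error (horizontal axis) of the members tested (rows) in 3 edgeR comparisons; filled points were called and open points were not, and a missing point was not tested. Il24 and Il19 are left out of the middle panel because mock ΔK14 skin held 1 and 0 counts, and only Il24 and Il19 against treated skin and Il20ra against mock skin are filled.

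Of the receptor chains, Il20ra and Il20rb had the highest levels in mock skin and varied most among skin libraries. Il20ra stood at 2.88, 64.0 and 109 CPM in mock fl/fl skin, at 8.33, 16.6 and 1.95 CPM in treated fl/fl skin, and at 1.002, 0 and 0 CPM in fl/fl tumors. Il20rb stood at 16.3, 128 and 169 CPM, at 41.97, 63.6 and 22.8 CPM, and at 21.5, 9.74 and 9.47 CPM in the same groups. In mock ΔK14 skin Il20rb was at 22.9 and 150 CPM. Both genes were lowest in replicate 1 of mock skin in each genotype, the libraries with high Krt71 and low Krt14 and Krt5. In treated ΔK14 skin both were also lowest in replicate 1, where Krt14 was at 970 CPM against 2482 and 5319 CPM. Across the 3 treated fl/fl libraries Krt71 was at 171 to 261 CPM and in the 3 treated ΔK14 libraries at 70.8 to 211 CPM. The part of hair follicle cells or of basal keratinocytes in the Il20ra and Il20rb levels was not tested.

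Il22ra1 and Il10rb were more even. Il22ra1 was at 9.51, 7.63 and 10.99 CPM in mock fl/fl skin, 7.82 and 6.47 CPM in mock ΔK14 skin and 11.9, 17.3 and 14.1 CPM in treated fl/fl skin. Its fl/fl tumors were lower, at 2.504, 0.761 and 0.980 CPM. Il10rb lay between 4.69 and 10.1 CPM in all 11 skin libraries and between 4.57 and 8.01 CPM in fl/fl tumors. Exons of Il10rb overlap those of the read-through gene Gm21970, so its counts are uncertain. Per kilobase of exon, Il20rb and Il20ra had mean levels of 24.9 ± 18.8 and 24.1 ± 21.8 CPM in mock fl/fl skin (SD, n = 3), which did not differ beyond their spread, against 3.65 ± 0.66 for Il22ra1 and 1.55 ± 0.54 for Il10rb. In ΔK14 tumors the order changed to Il20rb at 4.08 ± 1.94, Il10rb at 4.01 ± 1.65, Il22ra1 at 1.65 ± 0.69 and Il20ra at 0.452 ± 0.126, with the first 2 within each other's spread.

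**Figure D3:**
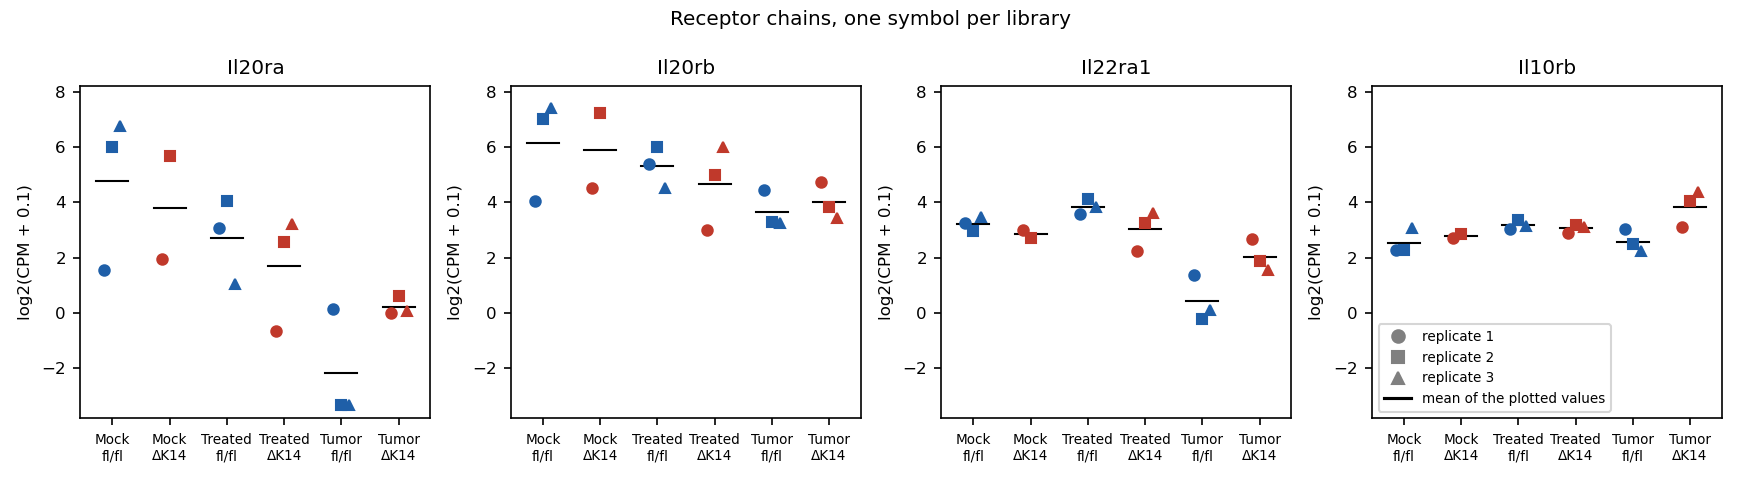
Level of Il20ra, Il20rb, Il22ra1 and Il10rb in each of 17 libraries, as log2(CPM + 0.1) on the vertical axis, by group on the horizontal axis; symbols and colors mark replicate and genotype as in the plot of ligand levels. Replicate 1 is the lowest mock library for Il20ra and Il20rb in both genotypes, and Il20ra is at or below 1.45 CPM in all 6 tumors.

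For control mice the difference between tumors and skin served to choose Il24 and is described only. Ratios of summed counts between fl/fl tumors and treated fl/fl skin were 291 for Il24 and 222 for Il19 (95% exact interval 75.5 to 1084, with 3 counts in skin). They were 0.0220 for Il20ra (0.00264 to 0.0808, with 2 counts in tumors), 0.294 for Il20rb, 0.0809 for Il22ra1 and 0.649 for Il10rb. Against mock fl/fl skin the ratios were 831 for Il24, 381 for Il19, 0.00285 for Il20ra, 0.112 for Il20rb, 0.115 for Il22ra1 and 0.910 for Il10rb. Nothing is read from the calls in these comparisons, whose outcome the choice of Il24 fixed in part. They were 2 members higher and 3 lower of 6 against treated skin, where 7.5% of all genes were called higher and 10.5% lower. Against mock skin they were 2 higher and 2 lower of 6, where 2.22% and 1.88% were called.

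The effect of Zfp36 loss was then compared at each stage. In tumors no member passed the test (0 of 5, with 0.0284% of 14067 genes called). At an unadjusted p under 0.05, 4 of the 5 members and 1975 of all genes were reached. The DESeq2 Wald test and the edgeR exact test also called no member, although each called 368 genes. Il24 was 1.64 ± 0.60 higher in ΔK14 tumors on the log2 scale (adjusted p = 0.296) and Il19 1.91 ± 0.64 (adjusted p = 0.262). Il22ra1 differed by 1.63 ± 0.59 (adjusted p = 0.288) and Il10rb by 1.23 ± 0.39 (adjusted p = 0.255), whereas Il20rb differed by 0.25 ± 0.45 (adjusted p = 0.836). The fl/fl tumor libraries in this comparison are those in which the rise of Il24 was first seen.

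The groups were separate for both receptor chains of the IL-22 receptor. Each ΔK14 tumor held more Il22ra1 (6.25, 3.62 and 2.84 CPM) than any fl/fl tumor (2.504, 0.761 and 0.980 CPM), and the same held for Il10rb (8.48, 16.5 and 20.9 CPM against 8.01, 5.48 and 4.57 CPM). The Il22ra1 values rest on few counts: 28, 20 and 15 in ΔK14 tumors and 5, 5 and 3 in fl/fl tumors. Among all genes tested, 13.7% had every ΔK14 tumor above every fl/fl tumor. Il24 and Il19 overlapped because of replicate 1 of the ΔK14 tumors. Among the fl/fl tumors replicate 1 stood apart, with Krt14 at 15665 CPM against 3857 and 4149 CPM in the others. Its Krt5 was at 12099 CPM against 2609 and 2796 CPM, and its Epcam at 176 CPM against 464 and 344 CPM. Leaving out replicate 1 of the fl/fl tumors, the library with the lowest total, gave 4 calls among 6 members, in a fit that called 2613 of 15463 genes: Il19 at 2.04 (adjusted p = 0.0463), Il22ra1 at 2.19 (adjusted p = 0.0241) and Il10rb at 1.47 (adjusted p = 0.0248) higher, and Il20, then tested, at -5.02 (adjusted p = 0.00260) lower in ΔK14 tumors. Over 13 alternatives the adjusted p ranged from 3.16e-11 to 0.719 for Il19, from 0.0241 to 0.780 for Il22ra1 and from 0.0124 to 0.762 for Il10rb, and over 6 from 0.000148 to 0.663 for Il20. With no filter on low counts, where 1393 of 32605 genes were called, the calls were 4 of 7 members, namely Il24 at 1.83, Il19 at 2.10 and Il10rb at 1.42 higher and Il20 at -4.39 lower.

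Some markers of other cells differed between these tumors. Summed over 12 leukocyte genes, the level was 72.4 to 107 CPM in ΔK14 tumors and 22.8 to 39.1 CPM in fl/fl tumors. Most of the ΔK14 level was Cd74, the invariant chain of antigen presentation that keratinocytes can also make, at 54.8 to 83.5 CPM. In fl/fl tumors Cd74 was at 10.7 to 28.5 CPM. H2-Aa had means of 11.8 CPM in ΔK14 and 3.77 CPM in fl/fl tumors. Means in the same order were 3.41 and 3.23 CPM for Csf1r and 3.65 and 3.10 CPM for Cd68. Lyz2 had means of 0.258 and 0.921 CPM, and Itgam of 1.48 and 1.65 CPM. The pan-leukocyte gene Ptprc was at most 1.503 CPM and the T cell gene Cd3e at most 0.181 CPM in any tumor. Krt14 also varied, from 3857 to 15665 CPM in fl/fl tumors and from 10959 to 11525 CPM in ΔK14 tumors. Over 4 sebaceous gland genes the sum was 1956 to 8329 CPM in fl/fl tumors and 1174 to 1506 CPM in ΔK14 tumors. The part of these differences in the member values was not tested.

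In treated skin, 0 of 4 members tested were called between genotypes, and 0.00616% of 16232 genes were. At an unadjusted p under 0.05 there were 0 members and 901 genes, and the DESeq2 Wald test and edgeR exact test called 0 members. Il22ra1 had the largest estimate, -0.73 ± 0.34 (adjusted p = 0.904). Summed Il24 counts were 20 in ΔK14 against 10 in fl/fl skin, a ratio of 2.24 (95% exact interval 0.999 to 5.35), and Il19 counts 13 against 3, a ratio of 4.85 (1.33 to 26.5). For Il20 the counts were 10 against 1, a ratio of 11.2 (1.59 to 485). None of the 3 ligands passed the filter. The ΔK14 replicate 3 library, which had the most Il24 and Il19, also had the highest sum over the 12 leukocyte genes, at 217 CPM. Of that sum 172 CPM was Cd74, while Ptprc was at 0.506 CPM and Cd3e at 0 in this library.

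Mock skin showed no call between genotypes in any gene (0% of 15920, with 253 genes and 0 members at an unadjusted p under 0.05, and 3 genes called by the DESeq2 Wald test and 2 by the edgeR exact test). Il20ra at -1.06 ± 1.57 and Il20rb at -0.24 ± 1.13 had errors larger than their estimates, Il22ra1 differed by -0.39 ± 0.36 and Il10rb by 0.21 ± 0.42.

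Between treated and mock skin no member passed the test in either genotype. In fl/fl mice 0 of 4 members and 0% of 16601 genes were called between treated and mock skin (913 genes and 1 member at an unadjusted p under 0.05, with 118 genes called by the DESeq2 Wald test and 104 by the edgeR exact test, no member among them). In ΔK14 mice it was 0 of 4 members and 0% of 15891 genes (763 genes and 0 members at an unadjusted p under 0.05, with 61 and 67 genes called by those tests, again no member). Il20ra differed by -2.71 ± 1.22 in fl/fl and -2.37 ± 1.20 in ΔK14 mice, and Il20rb by -1.27 ± 0.79 and -1.35 ± 0.97. Without replicate 2 of mock ΔK14 skin both ΔK14 values turned sign, to 0.51 ± 1.20 for Il20ra and 0.61 ± 0.94 for Il20rb. With no filter on low counts Il20ra was called lower in treated ΔK14 skin at -2.28 ± 0.57 (adjusted p = 0.0296), beside 212 of 32416 genes called. Without replicate 1 of mock fl/fl skin, Il20ra at -3.32 ± 0.60 (adjusted p = 0.00923) and Il20rb at -1.78 ± 0.36 (adjusted p = 0.0126) were called lower in treated fl/fl skin, in a fit that called 1224 of 17103 genes lower and 1363 higher. Over all 13 alternatives in fl/fl mice the adjusted p ranged from 0.00923 to 0.99998 for Il20ra and from 0.0126 to 1 for Il20rb.

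The difference between genotypes in the change from skin to tumor was called for no member (0 of 6 against treated skin, with 0.0118% of 17017 genes called, and 0 of 7 against mock skin, with 0% of 17388). Unadjusted p-values were under 0.05 for 2243 and 1423 genes. The smallest among members, all from the fit against treated skin, were those of Il22ra1 at 2.46 ± 0.67 (unadjusted p = 0.00304, adjusted p = 0.207) and Il10rb at 1.44 ± 0.45 (unadjusted p = 0.00731, adjusted p = 0.246). These values contain the control contrast that picked Il24, which for Il24 itself gave 0.59 ± 1.28. Without replicate 1 of fl/fl tumors 3 of 7 members were called against treated skin, in a fit that called 1352 of 17951 genes.

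Il24, Il20 and Il19 lie in that order on chromosome 1, all on the minus strand, followed by Il10, the founding member of the wider family. Il24 spans 130882074 to 130887454, Il20 spans 130906985 to 130911451 and Il19 spans 130932656 to 130940115 (GRCm38). The rise was uneven along this stretch. Mean levels in the 11 skin and 6 tumor libraries were 0.505 and 280 CPM for Il24 and 0.240 and 71.6 CPM for Il19, but 0.191 and 1.54 CPM for Il20, which lies between them. Fcmr, an IgM receptor gene that ends 1.283 kb from Il24 on the opposite strand, stayed at or below 3.22 CPM in every library. Il10 ranged from 0.865 to 5.39 CPM in skin and from 2.504 to 8.53 CPM in tumors. Mapkapk2, a kinase of the p38 pathway, ranged from 63.2 to 88.1 CPM in skin and from 111 to 241 CPM in tumors. Of the 13 other protein-coding genes within 250 kb, Mapkapk2 had the highest tumor mean at 167 CPM.

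**Figure D4:**
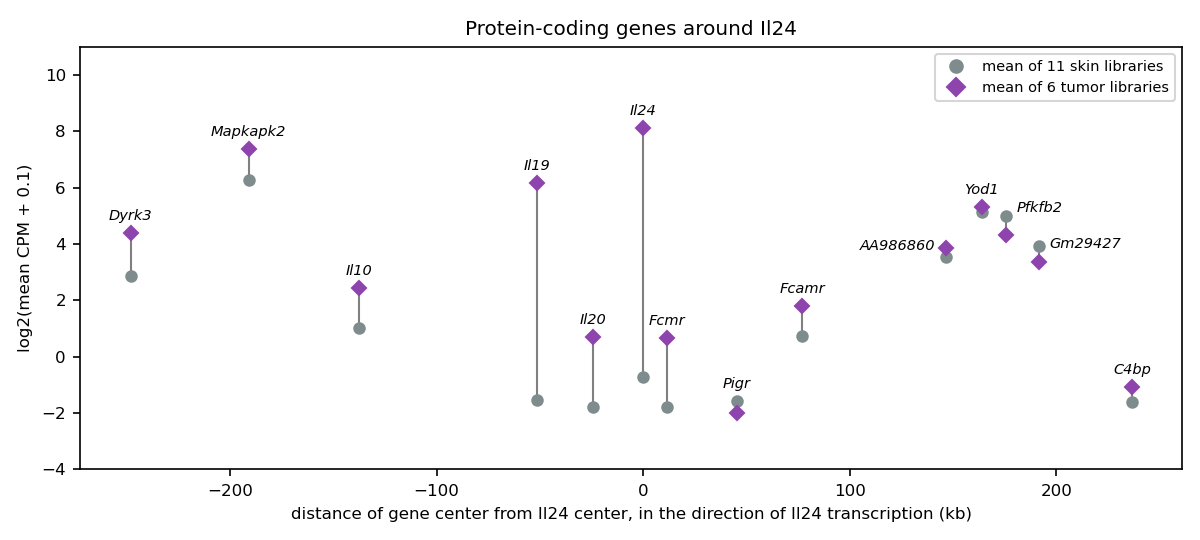
Mean level of the protein-coding genes within 250 kb of Il24 as log2(mean CPM + 0.1) on the vertical axis, by distance in kb along the direction of Il24 transcription on the horizontal axis; gray circles are the mean of 11 skin libraries and purple diamonds of 6 tumor libraries. The long lines at Il24 (0.505 to 280 CPM) and Il19 (0.240 to 71.6 CPM) enclose the short line at Il20 (0.191 to 1.54 CPM).

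Other genes of the pathway were taken from lists of relatives, signaling genes and keratinocyte genes that the subfamily or IL-22 is known to raise or lower. Among the 11 relatives, 6 were tested between ΔK14 tumors and treated ΔK14 skin. Ifnar2, a chain of the type I interferon receptor, rose by 1.35 ± 0.29 (adjusted p = 0.00794) and Ifnlr1, the interferon lambda receptor chain that pairs with IL-10RB, changed by -1.33 ± 0.34 (adjusted p = 0.0161). Their median change was 0.31, beside -0.03 over all genes tested. Against mock ΔK14 skin 7 were tested, with a median of 0.23 beside -0.06. Ifnar2 rose by 1.68 ± 0.42 (adjusted p = 0.0431) and Il22ra2, the soluble IL-22 binding protein, changed by -6.01 ± 1.26 (adjusted p = 0.0289). Il22ra2, with 5 summed counts in tumors, passed the low-count filter only through the mock libraries, so its p-value is given as a description. Il22 itself, the ligand of that protein, was at 0 in 16 of 17 libraries and at 0.260 CPM in the other.

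All 15 signaling genes were tested and few changed. Between ΔK14 tumors and treated skin Jak1, a kinase of these receptors, rose by 1.10 ± 0.32 (adjusted p = 0.0282) and Socs1, a feedback inhibitor of JAK kinases, rose by 1.59 ± 0.29 (adjusted p = 0.00427). None was called lower, beside 10.5% of all genes called higher and 15.5% lower, and the list median was 0.14. Against mock skin Socs1 rose by 1.80 ± 0.43 (adjusted p = 0.0394), Cish, another feedback inhibitor, changed by -2.10 ± 0.53 (adjusted p = 0.0457), and the list median was -0.25. Stat3, the main transcription factor of the pathway, differed by 0.24 ± 0.30 against treated skin and by 0.27 ± 0.49 against mock skin. Socs3, a common readout of STAT3 activity, differed by -0.47 ± 0.45 and -1.38 ± 0.75, and neither gene passed.

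Genes known to be raised by these cytokines were mostly higher in ΔK14 tumors. Of 17 listed, 13 were tested against treated ΔK14 skin and 9 rose, 0 fell, with a median of 2.56. Over all genes tested 10.5% were called higher and 15.5% lower, with a median of -0.03. Mmp3, a stromelysin, rose by 8.71 ± 0.93 (adjusted p = 0.000521), from 0.847 ± 0.770 to 427 ± 333 CPM (SD, n = 3). With 18 summed counts in treated skin, Mmp3 passed the low-count filter only through the tumor libraries. Its p-value is given as a description, and the count of 9 includes it. Krt6b and Krt6a, keratins of activated epidermis, rose by 3.15 ± 0.45 (adjusted p = 0.00161) and 2.87 ± 0.44 (adjusted p = 0.00207). S100a9, an alarmin subunit, rose by 2.85 ± 0.69 (adjusted p = 0.0133). The neutrophil attractant Cxcl5 and the alarmin S100a7a rose from 3 and 2 counts to 615 and 57, ratios of 258 (95% exact interval 87.8 to 1254) and 35.9 (9.48 to 303).

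Against mock ΔK14 skin 15 of these genes were tested and 12 rose, 0 fell, beside 7.05% of all genes called higher and 7.22% lower. Among the 15, 6 had 3 counts or fewer in mock skin, of which 3 had none. Their median was 6.37 as fitted and 6.12 with those 3 genes set against 3 counts. Serpinb3a, a serpin of squamous epithelium, was at least 194-fold higher, and Defb14, an antimicrobial defensin, at least 6.94-fold higher, both set against 3 counts over the mock libraries. S100a8 rose by 10.09 ± 0.76 (adjusted p = 0.00461), S100a9 by 9.79 ± 0.80 (adjusted p = 0.00461) and Mmp3 by 7.41 ± 1.45 (adjusted p = 0.0249). Summed counts of these genes in mock skin were 4, 5 and 14, in that order. S100a8 and S100a9 passed the low-count filter only through the tumor libraries. The p-values of all 3 are given as a description, and the count of 12 includes them. The ratio for Cxcl5, with 1 count in mock skin, was 261 (95% exact interval 46.7 to 10336).

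Of 10 genes of terminal differentiation that the cytokines are known to lower, 7 were tested against treated ΔK14 skin and 5 fell, with a median of -1.63. In this comparison 15.5% of all genes tested were called lower, and their median was -0.03. Klk7, a protease of desquamation, changed by -4.91 ± 0.59 (adjusted p = 0.000852) and Flg, the filaggrin gene of the cornified layer, by -4.79 ± 1.12 (adjusted p = 0.0113). Flg had 15 summed counts in tumors, so its p-value is given as a description. Krt10, the suprabasal keratin, changed by -1.94 ± 0.56 (adjusted p = 0.0262), Calml3, a calmodulin relative, by -1.63 ± 0.56 (adjusted p = 0.0488) and Dsc1, a desmosomal cadherin, by -1.40 ± 0.48 (adjusted p = 0.0498). None of these 5 genes was called between fl/fl tumors and treated fl/fl skin. There Klk7 differed by 1.26 ± 0.67, Flg by -0.37 ± 0.80 and Krt10 by -1.30 ± 0.69. Calml3 differed by 0.51 ± 0.53 and Dsc1 by -0.71 ± 0.34. Against mock ΔK14 skin 6 of the 10 were tested and 0 were called by edgeR, beside 7.22% of all genes called lower. The list median was 0.13. Of the 6, 2 had an unadjusted p under 0.05, in opposite directions: Krt10 at -2.29 ± 0.83 and Ivl at 1.36 ± 0.52. Between tumors of the 2 genotypes no gene of the 4 lists was called, and keratinocytes are known to change these genes in response to other signals too.

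**Figure D5:**
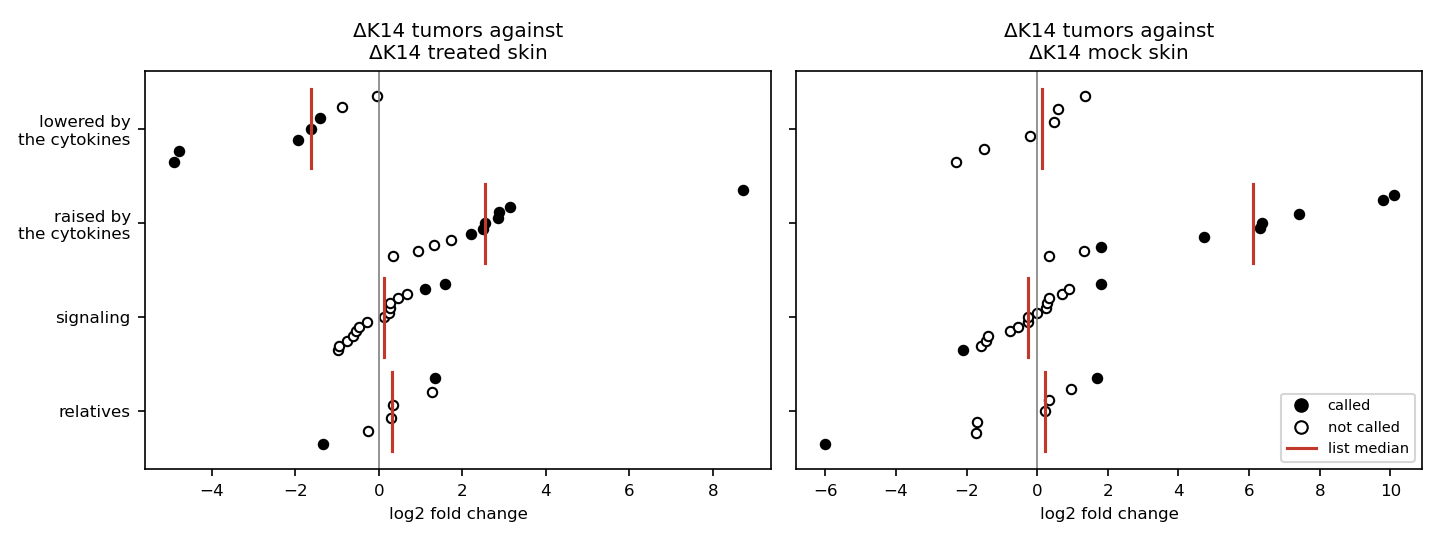
Log2 fold change of the listed pathway genes (horizontal axis) by list (rows) in ΔK14 tumors against treated and mock ΔK14 skin; filled points were called, open points were not, the red line is the list median and genes with 3 counts or fewer in a group are not drawn. The raised list sits right of 0 in both panels, with medians of 2.56 and 6.12, whereas the lowered list has medians of -1.63 and 0.13.

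Genes whose levels most resembled those of Il24 were ranked by Pearson's r of log2 CPM over 17 libraries among 18252 genes. Skin and tumor libraries form separate clusters, so r over all libraries mostly sets tumors against skin and is given as a description. Among the 10 with the highest r were Srprb (r = 0.985), Il19 (0.984), Cd44, the hyaluronan receptor (0.982), Tinagl1 (0.981), Fst, the activin antagonist follistatin (0.980), Por (0.979), Ssr3 (0.978), Cltc, the clathrin heavy chain (0.978), and the EGF family ligand Nrg1 (0.977). Cd44 was at 440.0 to 1031 CPM in skin and 1870.1 to 3025 CPM in tumors, and Nrg1 at 8.63 to 74.7 and 360.1 to 949 CPM. Within the 6 tumors r with Il24 was 0.937 for Cd44, 0.931 for Por, 0.846 for Il19 and 0.551 for Ssr3, and within the 11 skin libraries it was 0.814 for Il19 and 0.754 for Cd44. The other members were not close: Il10rb had r = 0.416, Il20 0.352, Il20rb -0.547, Il20ra -0.648 and Il22ra1 -0.769 over the 17 libraries. In the 6 tumors alone Il10rb had r = 0.865 with Il24.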

How the data were processed

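RNA-seq of mouse keratinocytes was analysed from the gene count table that the authors deposited, which holds raw read counts for 18 columns. RNA was isolated with RNeasy Plus Micro and libraries were made with Ovation SoLo. The submitters' processing notes name Trimmomatic 0.36, STAR 2.5.3, HTSeq 0.9.1, DESeq2 and the mm10 build, with no role or order. The annotation, strand setting and treatment of duplicate reads are not given in the sources used here. Without a stated strand setting, reads of overlapping genes such as Il10rb and Gm21970 cannot be told apart. Tables of the authors' own comparisons, which hold fold changes and p-values, were not used.

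Groups came from the sample titles. For each comparison the libraries of its groups were fitted with edgeR 4.0.16 in R 4.3.3 (filterByExpr, TMM, quasi-likelihood F test, two-sided), as the study used edgeR, and p-values were adjusted by Benjamini-Hochberg over all genes tested. Standard errors are the log2 change divided by the square root of F. CPM used TMM-scaled totals. Intervals on ratios of summed counts are exact binomial at 95% and cover counting error only. Scripts were tested on simulated data. Alternatives were DESeq2 1.42.0, the edgeR exact test, one fit of all libraries, RLE scaling, no filter, a mean count of at least 10, a replicate block, both identical columns kept, and each library left out. Genes were named as follows: the 7 members, listed pathway genes called in ΔK14 tumors or between genotypes (at most 6 per list and comparison, by size), the 10 genes most like Il24 (of which 1 is not reported here), Zfp36 and genes within 250 kb of Il24. Neighbors of Il20ra, Il22, Ifnl2, Stat3, Socs3 and marker genes were added after their values were seen. Members and lists were chosen with earlier results of these data known. Untranslated regions came from GENCODE M21, promoters from RefSeq, in which 5 of the 7 members had an entry. The promoters of Il24 and Il10rb are not analysed here.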

Additional observations from a re-analysis of the deposited data

How the results depend on the processing

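Across 11 comparisons the number of members called kept within 1.5 times its value, or stayed at 0, in 133 of 153 alternative fits, was higher in 10 and lower in 10. Most of these comparisons had 0 members called in the main fit, and for them only another 0 was taken as unchanged. With no filter on low counts 4 members were called between tumors of the genotypes, 5 between ΔK14 tumors and treated skin, 1 between treated and mock ΔK14 skin and 2 in the genotype difference of the change from treated skin to tumor; more genes were tested in those fits. Same-numbered libraries did not deviate together in every pair (correlations from -0.546 to 0.782), so the numbers were not taken as pairs. With the replicate number as a block, 1 member was called between treated and mock ΔK14 skin (Il20ra at -3.02, adjusted p = 0.0441, against a range of 0.0296 to 0.99998 over 13 alternatives) and 2 between fl/fl tumors and mock fl/fl skin, and no other count moved past 1.5 times. Leaving out each library in turn gave 0 to 4 members between tumors of the genotypes, 2 to 5 for ΔK14 tumors against treated skin, 0 to 4 against mock skin, 0 to 2 for treated against mock fl/fl skin, 3 to 6 for fl/fl tumors against treated skin, 1 to 6 against mock skin and 0 to 3 for the genotype difference against treated skin. Log2 changes turned sign in 21 fits, with adjusted p-values of 0.809 or more: under the block Il20rb between mock genotypes (0.33), Il22ra1 between treated and mock ΔK14 skin (-0.10) and Il10rb between fl/fl tumors and mock skin (0.0089), and with identical columns kept Il20rb between mock genotypes (0.045). Without single libraries the ranges were -0.19 to 0.72 for Il20rb between tumor genotypes, -1.07 to 0.12 between treated and -2.20 to 0.55 between mock genotypes, -3.25 to 0.51 for Il20ra, -2.12 to 0.61 for Il20rb and -0.018 to 0.58 for Il22ra1 between treated and mock ΔK14 skin, -0.25 to 0.29 for Il10rb between fl/fl tumors and mock skin, -2.93 to 0.45 for Il19 in the genotype difference against treated skin and -0.15 to 2.56 for Il20rb in that against mock skin. The cause was not tested. Over all genes the counts called moved more than those of members. Between tumors of the genotypes 4 became 368 by DESeq2 and by the edgeR exact test, 122 in one fit of all libraries, 1393 with no filter, 0 under the block and 0 to 2613 without single libraries. Between treated genotypes 1 became 36, 44, 2 and 218 in the first 4 of these and up to 12 without a library, and between mock genotypes 0 became 3, 2 and, under the block, 110. ΔK14 tumors against mock skin went from 2144 to 3361 (exact test), 4154 (no filter), 938 (block), 3619 (identical columns kept) and 101 to 4573 (single libraries). Treated against mock skin went from 0 to 61, 67, 212 (no filter) and 43 (block) in ΔK14 mice, and to 118, 104, 2 (one fit), 30 (no filter) and up to 2587 without a library in fl/fl mice. Fl/fl tumors went from 2764 to 4316 (no filter), 1831 (block) and 1106 to 4138 against treated skin, and from 632 to between 30 and 3277 against mock skin. The genotype differences went from 2 to between 0 and 1352 and from 0 to as many as 188. By Spearman's rho 3 of the 10 genes most like Il24 were shared. The nonamer TTATTTATT was in 0 members and ATTTA in 5, against 3 for the heptamer. Il20, and the ligands in skin, were limited by counts at or near 3 in a library.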

Other observations

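Further receptor genes of the same class lie near Il20ra on chromosome 10, and in mock skin their levels followed its order. Il22ra2, whose product binds IL-22 outside the cell, lies 77.889 kb away and Ifngr1, the ligand-binding chain of the interferon gamma receptor, lies 102.341 kb away, both on the same strand. In mock fl/fl skin Il22ra2 was at 2.10, 26.4 and 60.3 CPM and Ifngr1 at 16.6, 150 and 218 CPM, where Il20ra was at 2.88, 64.0 and 109 CPM. In mock ΔK14 skin Il22ra2 was at 2.16 and 41.3 CPM and Ifngr1 at 15.4 and 112 CPM. Replicate 1 was the lowest for all 3 genes in both genotypes. Il20rb, which lies on chromosome 9, had the same order in mock skin, at 16.3, 128 and 169 CPM in fl/fl mice. In ΔK14 mice it was at 22.9 and 150 CPM. Over the 6 tumors Il22ra2 stayed at or below 0.543 CPM, Il20ra at or below 1.45 CPM and Ifngr1 between 7.46 and 24.3 CPM. On the other side of Il20ra, Pex7, a peroxisomal import gene 93.847 kb away, was at 19.7 to 39.3 CPM in skin and 21.6 to 28.4 CPM in tumors, and Map3k5, a stress kinase gene, at 29.1 to 106 and 43.6 to 112 CPM. Libraries share their depth and cell makeup in this description, and it was made after the values were seen.

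Fcmr, which ends next to Il24 on the opposite strand, had a mean of 0.186 CPM in skin and 1.49 CPM in tumors. Dyrk3, 240.001 kb from Il24, had means of 7.16 and 20.8 CPM. Of the other ligands of the class, Ifnl2 was at 0 in all 17 libraries.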
